A study of Mus musculus with 8 samples.

Results

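LRH-1 (NR5A2) binding in the mouse ovary was set against open chromatin in granulosa cells at 4 h after the ovulatory stimulus, by pairing the peaks of the 2 deposited lists of that time. The members were all 9413 LRH-1 peaks and all 22791 FAIRE peaks after hCG, 32204 of the 59521 peaks in the 4 peak lists of the series, and a pair was any LRH-1 and FAIRE peak sharing at least 1 bp. This gave 3917 pairs. They joined 3913 LRH-1 peaks (41.6% of the list) to 3854 FAIRE peaks (16.9%).

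LRH-1 is an orphan nuclear receptor that binds DNA mainly as a monomer, and granulosa cells, which surround the oocyte in the follicle, need it for ovulation and for the formation of the corpus luteum. FAIRE recovers DNA that is not held by nucleosomes after formaldehyde fixation and so marks promoters, enhancers and other accessible sites. A transcription factor peak that overlaps a FAIRE peak lies at DNA listed as accessible in the FAIRE sample. A peak that overlaps none lies at DNA for which no accessible site was listed. The assays used separate samples, so an overlap does not show that the bound DNA itself was accessible in the same cells.

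All mice were C57BL/6 females of the genotype LRH-1 +/+, aged 22 to 25 days, given 5 IU of eCG (equine chorionic gonadotropin), a hormone that makes follicles grow. The group after hCG (+OvS) received 5 IU of human chorionic gonadotropin (hCG), which acts as the luteinising hormone surge does, at 44 h after eCG and was sampled 4 h later, and the group before hCG (-OvS) was sampled at 0 h. Granulosa cells were taken by ovarian puncture for FAIRE, whereas the protocol of the LRH-1 chromatin immunoprecipitation (ChIP) names ovarian tissue, with n = 5 stated per condition. The ChIP samples are nevertheless labelled as granulosa cells, and which of the 2 holds is not settled by the sources used here. If ovarian tissue was used, LRH-1 sites of theca, stromal or other ovarian cells could stand in the LRH-1 list without their open chromatin being in the FAIRE list, and their part in the unpaired LRH-1 peaks was not tested. The peak lists hold no marker genes against which the tissue could be checked.

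Each assay and time had 1 deposited list although the labels state 2 replicates, so no value below has a replicate error. Intervals are 95% intervals that cover counting error only (exact binomial ones for shares, exact order-statistic ones for medians), and no difference was tested, because peaks of 1 list share its animals and its library. Both assays measured many cells together, so a site open or bound in fewer cells and one open or bound more weakly in every cell cannot be told apart. Positions are in mouse build mm9, with starts counted from 1.

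Each pair was described by measures of strength, openness, width and place. LRH-1 strength is the authors' fold enrichment over the local background at the summit, the base of highest signal in a peak, and it ran from 2.89 to 30.1 with a median of 5.31. The FAIRE score, also the authors' own, ran from 40 to 1485 with a median of 71.4. FAIRE peaks were 304 to 5133 bp wide with a median of 897 bp, and LRH-1 peaks 233 to 1520 bp wide with a median of 316 bp. Both the fold enrichment and the score rank peaks within their own list.

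The first question was whether strongly bound sites were more often open. LRH-1 peaks at a FAIRE peak had a median fold enrichment of 5.53 (interval 5.47 to 5.56, n = 3913), against 5.21 (5.18 to 5.26, n = 5500) for those at none. The middle 50% of the peaks lay between 4.77 and 6.59 at FAIRE peaks and between 4.63 and 6.01 elsewhere. On each of the 19 autosomes the median at FAIRE peaks was the higher one. LRH-1 peaks at FAIRE peaks were also wider, with a median of 344 bp (339 to 349) against 301 bp (298 to 303), and by the −log10 of the caller's q-value they had a median of 9.47 (9.26 to 9.69) against 7.84 (7.70 to 7.91).

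The relation was not even along the list. When the LRH-1 peaks were put into 10 groups of equal size by fold enrichment, the share at a FAIRE peak stayed between 35.2% and 37.1% in the 5 groups with the lowest enrichment, which reach up to 5.31-fold. Above that it went up group by group, to 40.2%, 43.1%, 43.9%, 47.6% and, in the group with the highest enrichment (7.5-fold and more), 60.4% (57.2 to 63.5). Of the 500 most enriched peaks 64.8% (60.4 to 69) lay at a FAIRE peak, and of the 100 most enriched 73% (63.2 to 81.4). Open chromatin was thus more frequent at the most enriched sites, and some of these still had no listed FAIRE peak.

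**Figure D1:**
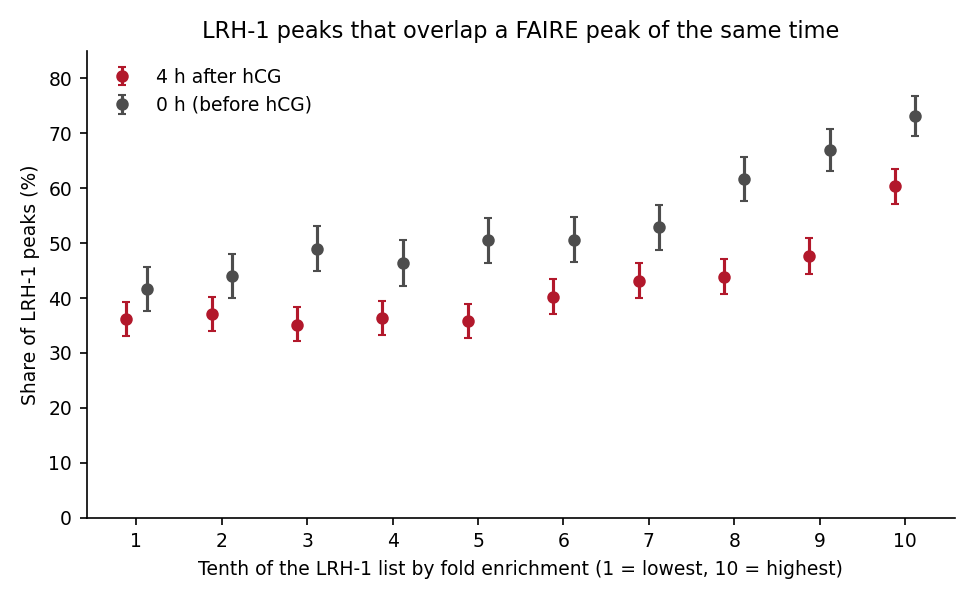
Share of LRH-1 peaks that overlap a FAIRE peak of the same time (vertical axis, percent) in 10 groups of equal size by fold enrichment (horizontal axis), after hCG in red and before hCG in grey; bars are exact 95% binomial intervals. After hCG the 5 lowest groups sit between 35.2% and 37.1% and the highest group at 60.4%. Before hCG the lowest and highest groups sit at 41.6% and 73.2%. Each list was cut into its own 10 groups.

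The most enriched peak at a FAIRE peak lay on chr12:80599949-80600395, with 20.9-fold enrichment, the second highest value of the whole LRH-1 list. Its FAIRE peak at 80599713 to 80600644 scored 58, rank 14835 of 22791, and the LRH-1 summit lay within 1 bp of the FAIRE centre. On chromosome 4 the LRH-1 peak at 28103911 to 28104314 (17.0-fold) lay in a FAIRE peak of score 152. The peak on chr11:53953543-53954271 (16.8-fold) had the best-scoring open site of these 5, with a score of 351. Those on chr14:101370054-101370574 (15.7-fold) and on chr5:125889300-125889744 (15.1-fold) lay in FAIRE peaks of score 88 and 77.7. So 4 of these 5 lay in FAIRE peaks of score rank 3449 to 14835, and the summits of the same 4 lay within 49 bp of the FAIRE centre.

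The most enriched LRH-1 peaks without a FAIRE peak were as enriched. The peak on chrX:73399394-73399840 was 30.1-fold enriched, the highest value of the list, and its nearest FAIRE peak was 278336 bp away. On chromosome 6 the peak at 30487873 to 30488318 (19.6-fold) was 27543 bp from the nearest FAIRE peak. The peak on chr1:184430980-184431459 (18.7-fold) was 1901 bp from one. The peaks on chr2:93985276-93985686 (16-fold) and on chr17:44242237-44242675 (15.8-fold) were 12000 and 24470 bp away.

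The second question was whether more open chromatin went with stronger LRH-1. Over the 3917 pairs, the Spearman correlation of fold enrichment with FAIRE score was 0.0724 and with FAIRE width -0.00500. With the −log10 of the q-value as the strength these were 0.117 and 0.0608, and in the better 50% of the LRH-1 list by q-value 0.02002 and -0.0632, so the sign for the width depended on the measure. These are descriptions over sites of the same libraries, in which score and width themselves were related (Spearman correlation 0.503 over the pairs). Within 3 groups of equal size by FAIRE width, the Spearman correlation with the score was 0.0601 in the narrowest, 0.0692 in the middle and 0.126 in the widest group. Within 3 groups by FAIRE score, the Spearman correlation with the width was -0.0657, -0.0382 and -0.0284 from the lowest to the highest scores. Over the 19 autosomes taken singly, the Spearman correlation with the score ran from -0.112 on chromosome 19 to 0.244 on chromosome 15 and was above 0 on 16.

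The strongest pairs by fold enrichment were compared with the best-scoring and the widest. Of the 391 pairs in the top 10% by fold enrichment, 68 (17.4%, interval 13.8 to 21.5) were also in the top 10% by FAIRE score and 31 (7.93%, 5.45 to 11.1) in the top 10% by FAIRE width. The shared part thus lay above 10% for the score, while the interval for the width includes 10%, and most pairs of the highest enrichment were not among those of the highest score. FAIRE peaks with a score under the median of their list held 110 of these 391 strong pairs (28.1%, 23.7 to 32.9) and 34% (32.5 to 35.5) of all pairs. The 100 pairs with the highest FAIRE scores, all of 343 and more, had a median fold enrichment of 5.68 (5.50 to 6.31), close to that of all paired LRH-1 peaks.

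Whether a FAIRE peak held LRH-1 at all went with its score and its width. FAIRE peaks with LRH-1 had a median score of 91.9 (89.5 to 94.7, n = 3854), against 68.2 (67.4 to 69) for the 18937 without. Their median width was 959 bp (952 to 965), against 883 bp (880 to 886). In 10 groups of equal size by width, the share with LRH-1 went up at every step, from 7.11% (6.08 to 8.24) in the narrowest, up to 659 bp, to 30.7% (28.8 to 32.7) in the widest, from 1159 bp. Over the same 10 groups the median enrichment of the strongest LRH-1 peak stayed between 5.43 and 5.66. By score, the lowest group had 5.37 (5.27 to 5.56) and the highest 5.83 (5.71 to 5.97), with intervals that do not overlap.

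A wider peak offers more bases for an overlap, so 2 measures that allow for length were added after these values were seen. Per megabase of FAIRE peak, the LRH-1 peaks numbered 122 in the narrowest and 223 in the widest of the 10 groups, and 231 in the group next to the widest. The share of FAIRE peaks with an LRH-1 summit within 150 bp of their centre, the same window for every peak, was 5.44% (4.54 to 6.45) in the narrowest group, 16.8% (15.3 to 18.5) in the group next to the widest and 12.8% (11.5 to 14.3) in the widest. The gradient with width was thus smaller in a fixed window, and it turned down in the widest group.

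**Figure D2:**
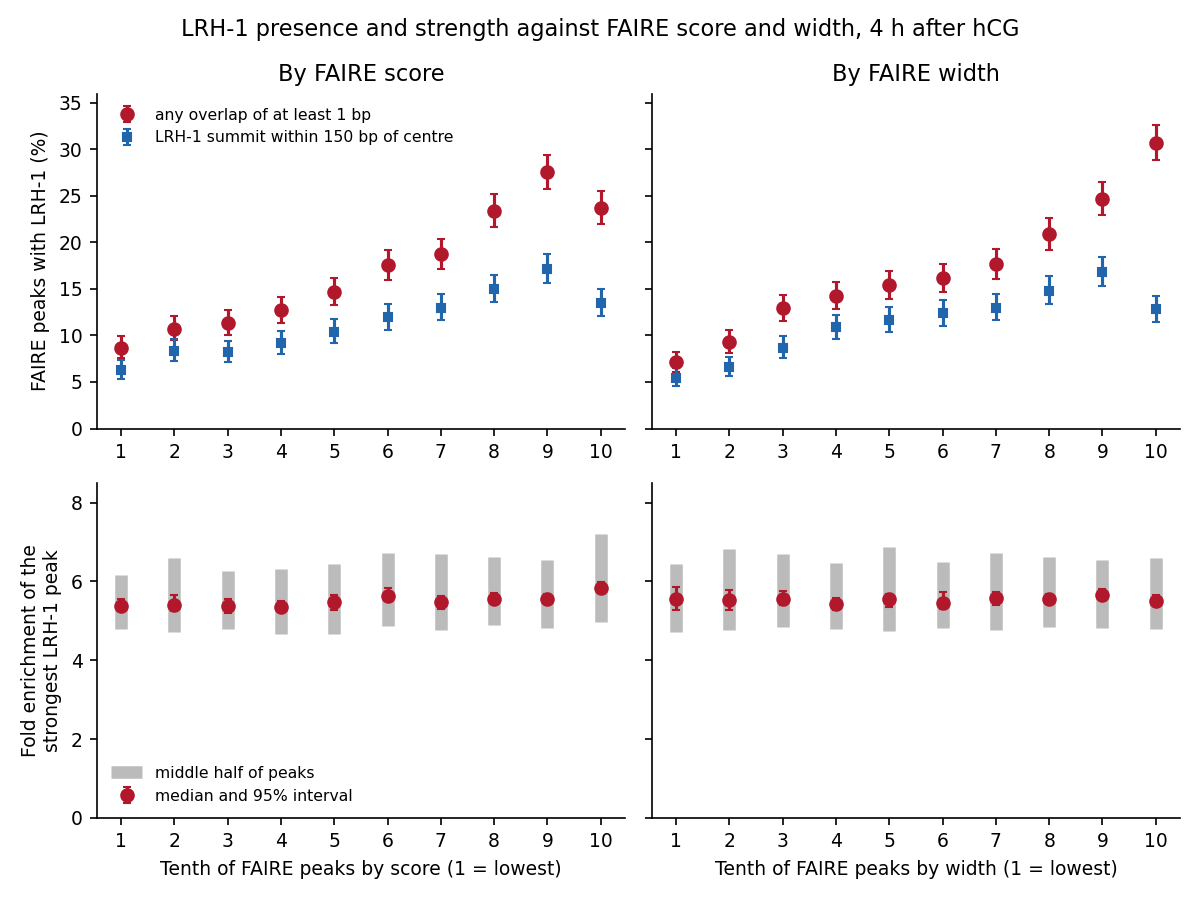
Upper panels give the share of FAIRE peaks after hCG with LRH-1 (percent, exact 95% intervals) for any overlap (red circles) and for an LRH-1 summit within 150 bp of the FAIRE centre (blue squares); lower panels give the fold enrichment of the strongest LRH-1 peak (red, median with 95% interval; grey, the middle 50% of the peaks). The horizontal axes are 10 groups of equal size by FAIRE score or width; presence goes up from 7.11% to 30.7% by width while the median fold stays between 5.43 and 5.66.

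Score and width each kept a relation with the presence of LRH-1 within groups of the other, though these groups are broad. Any overlap of at least 1 bp was counted here, so the relation with width does not allow for length. In a grid of 5 groups by score and 5 by width, low-scoring narrow peaks held LRH-1 at 7.31% (6.14 to 8.62, n = 1765) and high-scoring wide peaks at 31.7% (29.7 to 33.7, n = 2159). Among the narrowest FAIRE peaks the share ran only from 7.31% at the lowest to 11.7% (8.49 to 15.7) at the highest scores. Among the widest it ran from 12.9% (7.56 to 20.1, n = 124) to 31.7%. Among the lowest-scoring peaks the 4 wider groups held 10% to 13.1%. High-scoring but narrow FAIRE peaks, 332 sites with a median width of 679 bp, thus held LRH-1 less often than the 16.9% of the whole FAIRE list.

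**Figure D3:**
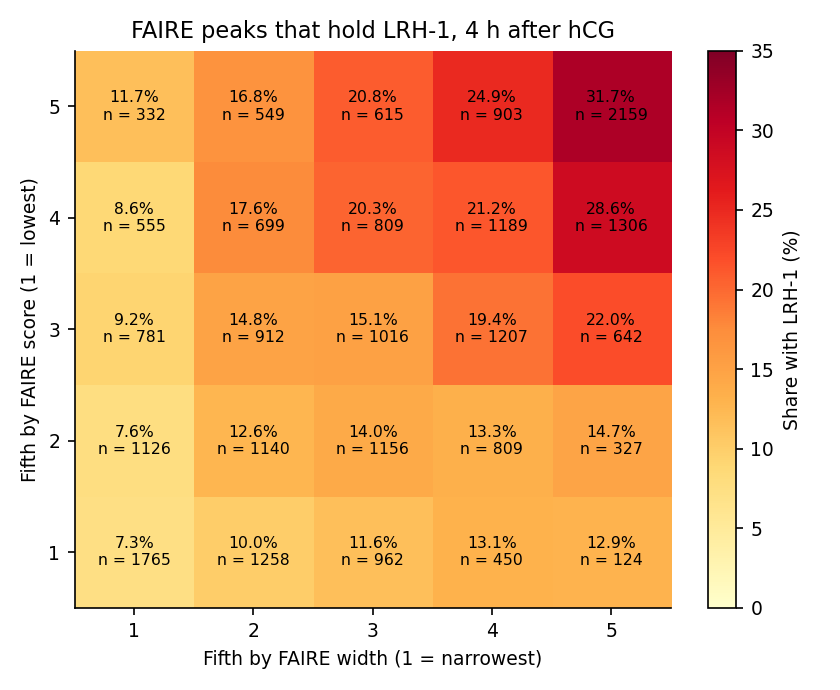
Share of FAIRE peaks after hCG that hold LRH-1 (colour and percent, with the number of FAIRE peaks n) in 5 groups by FAIRE width (horizontal axis) and 5 by FAIRE score (vertical axis). The share is 7.31% at the lowest score and width and 31.7% at the highest of both, and 11.7% for narrow peaks of the highest scores.

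At the top of the FAIRE list the share went down again. In 20 groups of equal size by score it was 28% (25.4 to 30.7) for scores from 131 to 152 and 27.1% (24.5 to 29.8) for those from 152 to 186. It was 25.3% (22.8 to 27.9) up to 248 and 22.1% (19.7 to 24.6) in the group above that, although this last group was the widest, with a median of 1079 bp. The 5 best-scoring FAIRE peaks of the list all lacked LRH-1, as did most FAIRE peaks of that last group. These 5 lay on chr5:60433534-60434486 (score 1485), chr8:4165746-4166606 (1042), chr7:134352060-134353096 (973), chr17:57170837-57172045 (972) and chr8:97604351-97605570 (935). The FAIRE peak of rank 6 by score held LRH-1.

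The best-scoring FAIRE peaks that did hold LRH-1 carried it away from their centre. The highest, on chr17:56217895-56219292 (score 898), had a 4.14-fold LRH-1 peak with its summit at 28.8% of the FAIRE length. On the same chromosome the peak at 34740123 to 34741653 (score 800) had a 5.20-fold peak at 15.5% of its length. On chr5:138069491-138070797 (score 707) and on chr7:4690659-4692141 (score 698), the LRH-1 peaks of 5.79-fold and 5.20-fold overlapped the edge and had their summits just outside. On chr11:95936531-95937772 (score 619) a 5.68-fold peak had its summit at 25.9%. Their ranks by fold enrichment in the LRH-1 list were between 3344 and 8630 of 9413.

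The third question was where in the open region LRH-1 sat. The LRH-1 summit lay inside the FAIRE peak in 3763 of 3917 pairs (96.1%, interval 95.4 to 96.7), and 87.1% (86 to 88.1) of the paired LRH-1 peaks lay wholly inside. FAIRE peaks were a median of 2.77 times as wide as their LRH-1 peak, so summits tend to fall inside by width alone. The share inside to be had from width alone was not worked out. The FAIRE lists give no summit, so the middle of the peak was taken as its centre. The median distance from LRH-1 summit to FAIRE centre was 99 bp (95 to 104), with the middle 50% of the pairs between 45.5 and 201 bp. In 48.6% (47 to 50.1) of pairs the summit lay in the central 20% of the length, and in 12.4% (11.4 to 13.5) in the outer 40% or beyond. Both sides were alike, with 50.7% (49 to 52.3) of the inside summits on the lower-coordinate side of the centre.

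**Figure D4:**
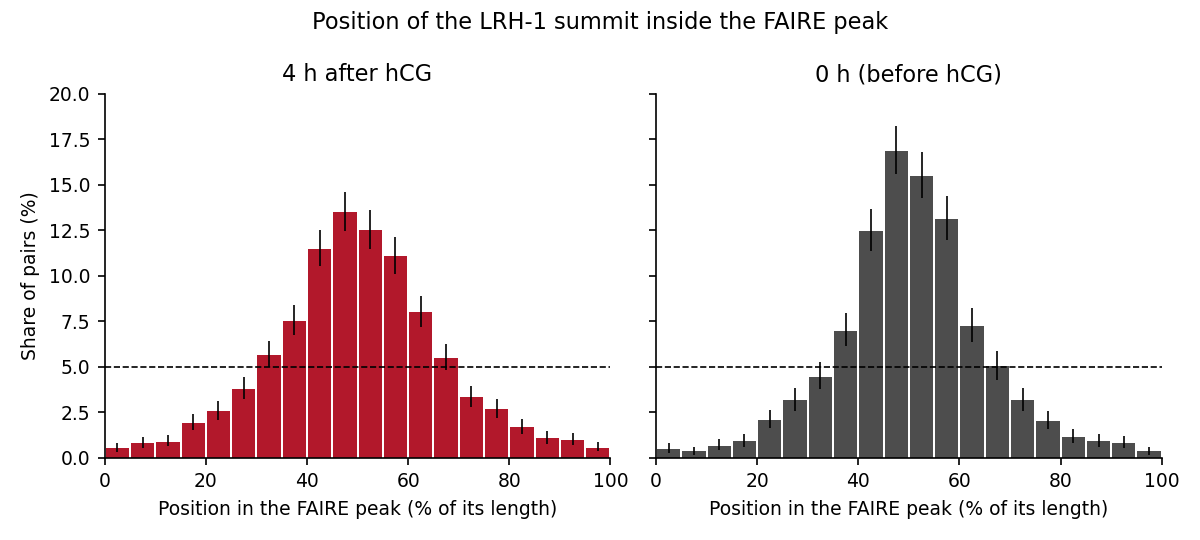
Share of all pairs (vertical axis, percent, exact 95% intervals) whose LRH-1 summit falls in each of 20 equal bins along the FAIRE peak (horizontal axis, percent of its length, from the lower to the higher coordinate), after hCG at left and before hCG at right; the dashed line marks the 5% of length in a bin. After hCG the 2 bins on either side of the centre hold 13.5% and 12.5% of the pairs and the outermost 0.536% and 0.562%; before hCG the bins at the centre hold 16.9% and 15.5%.

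Summits of stronger LRH-1 peaks lay nearer the centre. In 3 groups of equal size by fold enrichment, the median distance was 120 bp (110 to 128) for the weakest, 104 bp (95.5 to 115) for the middle and 82.8 bp (77.5 to 88) for the strongest pairs, and the share in the central 20% was 42.6%, 48.3% and 54.8%. Read the other way, the median enrichment was 5.69 (5.61 to 5.78) for the 1969 pairs within 100 bp of the centre, 5.54 from 100 to 200 bp, 5.32 from 200 to 300 bp, 5.24 from 300 to 400 bp, 5.40 from 400 to 500 bp and 4.97 (4.80 to 5.20) for the 173 pairs beyond 500 bp. The Spearman correlation of fold enrichment with distance was -0.143 over the 3917 pairs. The median FAIRE score was 85.6 for pairs within 100 bp of the centre and 115 beyond 500 bp, and the Spearman correlation of score with distance was 0.133. Distance in bp also went with FAIRE width (0.208). With the distance taken relative to the width of the FAIRE peak, the correlation was 0.0316 for the score and -0.142 for the fold enrichment, and the share in the central 20% by score group was 49.5%, 49.2% and 47.0%. Place within the FAIRE peak thus went with the enrichment and hardly with the score.

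The ends of the 3 scales, looked at after these values were seen, differed in the place of LRH-1. The 100 pairs with the highest fold enrichment had their summit in the central 20% in 63% (52.8 to 72.4), at a median of 64.5 bp from the centre. For the 100 pairs with the highest FAIRE scores it was 38% (28.5 to 48.3), at 211 bp (147 to 262), and 90% (82.4 to 95.1) had the summit inside the FAIRE peak, below the 96.1% of all pairs. For the 100 pairs with the widest FAIRE peaks, from 1774 bp, it was 15% (8.65 to 23.5), an interval that includes the 20% of length, at 433 bp (375 to 459). In width groups of all pairs the middle group, 890 to 1034 bp, had the highest central share, 57.9% (55.2 to 60.6), against 42.6% in the narrowest and 45.1% in the widest group.

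LRH-1 summits outside the FAIRE peak they touched, 154 in all, lay a median of 79 bp (65 to 92) from its edge, and their peaks had a median enrichment of 5.23 (5.02 to 5.42) against 5.54 (5.49 to 5.57) for pairs with the summit inside. The smallest overlaps were 2 bp, on chromosome 3 between the LRH-1 peak at 101609729 to 101610105 (10.6-fold) and the FAIRE peak at 101610104 to 101610688 (score 48.9), and on chromosome 15 between the LRH-1 peak at 82986750 to 82986983 (4.70-fold) and the FAIRE peak at 82986982 to 82987967 (score 62.8). The next, of 6 bp, was on chromosome 11 between 109472071 to 109472495 (6.31-fold) and 109472490 to 109473687 (score 447).

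Just outside the rule, the closest LRH-1 peaks that shared no base with a FAIRE peak lay 2 bp from one, on chr4:15992134-15992413 (6.78-fold), chr9:77561222-77561473 (5.87-fold) and chr8:113558193-113558441 (4.49-fold).

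The fourth question was how the LRH-1 peaks without a FAIRE peak were placed. Of these 5500 peaks, 274 (4.98%, interval 4.42 to 5.59) lay within 500 bp of a FAIRE peak, 13.4% within 2000 bp and 38.2% within 10000 bp. The median distance was 15765 bp, and 979 (17.8%, 16.8 to 18.8) were more than 50000 bp away. Near-misses at the edge of open sites were thus a small part of the unpaired list. Enrichment was lowest close to open chromatin, with medians of 5.02 (4.92 to 5.22) within 500 bp and 5.02 (4.90 to 5.14) from 500 to 2000 bp. It was 5.12 (5.05 to 5.19) from 2000 to 10000 bp, 5.24 from 10000 to 50000 bp and 5.37 (5.27 to 5.49) beyond that. By the −log10 of the q-value the order was another, with medians of 7.79, 8.29, 8.07, 7.60 and 7.91 over the same bands, so the gradient held for the fold enrichment and not for that measure. FAIRE peaks scoring under 40 are not in the list, and a weaker accessible site at these positions would not be seen.

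**Figure D5:**
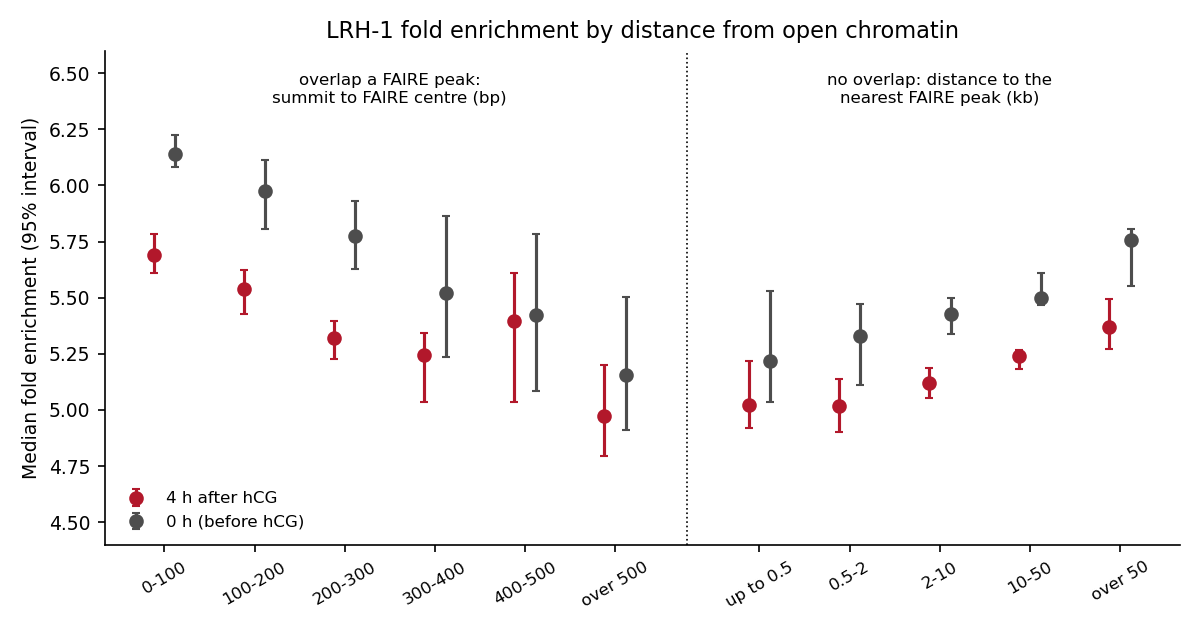
Median fold enrichment of LRH-1 peaks (vertical axis, cut at the bottom, with 95% intervals) after hCG in red and before hCG in grey. Left of the dotted line are peaks that overlap a FAIRE peak, by distance of the LRH-1 summit from the FAIRE centre in bp; right of it peaks that overlap none, by distance to the nearest FAIRE peak in kb; after hCG the medians are 5.69 at the centre, 4.97 beyond 500 bp from it, 5.02 next to open sites and 5.37 far from them.

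The fifth question was how many LRH-1 peaks one open region held. The count is of listed peaks, which do not overlap each other, so close sites called as 1 peak count once. A wider region also has more room for several. Of the 3854 FAIRE peaks with LRH-1, 3793 held 1 LRH-1 peak, 59 held 2 and 2 held 3, so 1.58% (interval 1.21 to 2.03) held several. These 61 regions were wider, with a median of 1185 bp against 957 bp for those with 1 LRH-1 peak and 883 bp for those with none, and 33 of them were among the widest 10% of all FAIRE peaks. Their median score was 129, against 91.5 with 1 LRH-1 peak and 68.2 with none. Strength was taken from the strongest LRH-1 peak of a region. Where a region held several, this is a maximum of 2 or 3 values, which tends to lie above a single value. The comparison with regions of 1 LRH-1 peak is thus uneven, and no difference was tested. The strongest LRH-1 peak of a region with several had a median enrichment of 5.43 (5.00 to 5.77, n = 61), against 5.55 (5.49 to 5.58, n = 3793) for a single one, with intervals that overlap. By the −log10 of the q-value the medians were 10.5 (9.40 to 12.5) for regions with several and 9.50 (9.31 to 9.76) for a single one, again with intervals that overlap.

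In the 59 regions with 2 LRH-1 peaks, the stronger one had a median enrichment of 5.47 (5.11 to 5.82) and the weaker one 4.23 (4.09 to 4.49). Over all 61 regions with several, the 63 gaps between neighbouring summits measured 216 to 1510 bp, with a median of 576 bp (539 to 631). With 2 LRH-1 peaks, the summits lay on both sides of the FAIRE centre in 49 of the 59 regions (83.1%, 71 to 91.6). These 59 regions had a median width of 1185 bp, so 2 summits this far apart tend to fall on both sides by spacing alone. The share to be had from spacing alone was not worked out. The stronger peak was the nearer one to the centre in 35 (59.3%, 45.7 to 71.9), an interval that includes an even split.

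Both regions with 3 LRH-1 peaks held weak ones. On chromosome 3 the FAIRE peak at 127222908 to 127223844 (score 180) was 937 bp wide and held LRH-1 peaks of 3.92-fold, 3.95-fold and 4.52-fold, of which only the middle one had its summit inside. On chromosome 11 the FAIRE peak at 88829032 to 88831901 (score 129), at 2870 bp the widest that held LRH-1, contained peaks of 3.51-fold, 3.34-fold and 3.21-fold, at 13%, 34.1% and 86.7% of its length. The next widest with LRH-1, also on chromosome 11, at 58114375 to 58117162 (2788 bp) and 83084326 to 83086907 (2582 bp), held 1 LRH-1 peak each, of 3.40-fold and 4.05-fold.

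Of the regions with 2 LRH-1 peaks, the best-scoring lay on chr10:4521098-4522872 (score 529), with peaks of 5.50-fold and 5.61-fold whose summits were at 30.1% and 72.5% of its length. On chromosome 17 the region at 88594365 to 88595253 (score 427) held peaks of 4.92-fold and 5.59-fold, and that at 56394847 to 56396620 (score 418) held peaks of 5.32-fold and 4.23-fold. The opposite case, 1 LRH-1 peak that spanned 2 FAIRE peaks, occurred 4 times. On chromosome 1 the LRH-1 peak at 153567556 to 153568210 (6.15-fold) joined FAIRE peaks of score 87.5 and 40.6. On chromosome 16 the one at 13437553 to 13437937 (6.89-fold) and on chromosome 17 the one at 86843870 to 86844166 (4.56-fold) had their summit in the gap between the FAIRE peaks.

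Chromosomes differed in the share of LRH-1 peaks at open chromatin. Among the 19 autosomes it ran from 35.9% (31.4 to 40.5) on chromosome 8 to 50.7% (46.2 to 55.2) on chromosome 10. On chromosome X it was 26 of 95 peaks (27.4%, 18.7 to 37.5). Seen from the FAIRE peaks, 26 of 379 on chromosome X held LRH-1 (6.86%, 4.53 to 9.89), against 14.1% on chromosome 18 to 19.3% on chromosome 17 among the autosomes. FAIRE peaks on chromosome X had a median score of 62.4, below the autosomal medians, which began at 67.2.

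The same measures were taken in the 2 lists before hCG. There 3159 of 5886 LRH-1 peaks (53.7%) made 3162 pairs. The share of FAIRE peaks with LRH-1 was 16.9% (16.4 to 17.4) after hCG and 14.6% (14.1 to 15.1) before it. Before hCG, FAIRE peaks with LRH-1 also scored higher (median 91.8, against 67.7 without). By width, the share with LRH-1 was then 5.78% in the narrowest and 28.3% in the widest of 10 groups. By score, it was 27% for scores from 153 to 192 and 15.7% in the highest of 20 groups. The share in the central 20% was 48.6% (47 to 50.1) after hCG and 57.9% (56.2 to 59.7) before it, and the median distance of summit to centre was 99 bp (95 to 104) after hCG and 80.5 bp (77 to 84.5) before it. LRH-1 peaks were wider after hCG, at a median of 316 bp (314 to 319) against 287 bp (284 to 290), and FAIRE peaks narrower, at 897 bp (894 to 899) against 918 bp (915 to 920); the part of these widths in the central share was not tested. The Spearman correlation of fold enrichment with FAIRE score was 0.0724 after hCG and 0.114 before it, and with FAIRE width -0.00500 after hCG and 0.0333 before it. Regions with several LRH-1 peaks made up 1.58% (1.21 to 2.03) after hCG and 1.12% (0.781 to 1.55) before it. Their strongest LRH-1 peak had a median enrichment below that of single ones after hCG (5.43 against 5.55) and above it before hCG (6.07 against 6.00), with overlapping intervals at both times. The stronger of 2 LRH-1 peaks was the nearer one to the centre in 59.3% (45.7 to 71.9) after hCG and in 48.6% (31.4 to 66) before it. The correlation of fold enrichment with FAIRE width in the 3 score groups was -0.0657, -0.0382 and -0.0284 after hCG, and 0.00450, -0.0933 and 0.0376 before it.

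In the most enriched 10% of the LRH-1 list, 60.4% (57.2 to 63.5) lay at FAIRE peaks after hCG and 73.2% (69.4 to 76.7) before it, and in the least enriched 10% it was 36.1% (33 to 39.3) after hCG and 41.6% (37.6 to 45.7) before it. The share was lower after hCG in each of the 10 groups by enrichment, a difference that was not tested. Among the 100 most enriched peaks of each list it was 73% (63.2 to 81.4) after hCG and 81% (71.9 to 88.2) before it. On chromosome X it was 27.4% (18.7 to 37.5) after hCG and 53.8% (42.2 to 65.2) before it. The list held 9413 LRH-1 peaks after hCG and 5886 before it, depths of the libraries are not in the sources used here, and the difference between times cannot be told apart from that between single lists.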

How the data were processed

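LRH-1 ChIP-seq and FAIRE-seq were each represented by 1 peak list at 4 h after hCG and 1 at 0 h, and the sources used here do not say how the stated 2 replicates entered a list. BWA, MACS2 2.1.0, bedtools and mm9 are named in the submitters' processing notes. In the LRH-1 lists the deposited columns are, per the MACS2 column order, the fold enrichment at the summit over the local background as a ratio, and the −log10 of the p-value and q-value. In the FAIRE lists the authors give a score per peak, with no formula stated, which is at least 40 in every row after hCG, and no summit. FAIRE peak names begin with MACS, and the caller's version and filters, the controls and the read depths were not given in the sources used here, so the depth behind a peak is unknown. No mm9 sequence or gene annotation was used here, so peaks are given by position without genes, and the RNA tables were not used.

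Peaks sharing at least 1 bp were paired with numpy 2.4.6, scipy 1.17.1 and pandas 2.3.3 under Python 3.11.15. The 3917 pairs were checked against bedtools 2.31.1, which gave the same 3917, and the code was tested on simulated data. Shares have exact Clopper-Pearson and medians exact order-statistic 95% intervals, and correlations are Spearman's, without a p-value. No group comparison was tested, as there was 1 list per assay and time. The peaks named are the 5 most enriched LRH-1 peaks with and without FAIRE, the 5 best-scoring FAIRE peaks with and without LRH-1, the 5 with most LRH-1 peaks, the 3 widest with LRH-1 and the 3 smallest overlaps. The 3 nearest peaks without overlap and the LRH-1 peaks that spanned 2 FAIRE peaks were added after their values were seen, as were the 150 bp window, the LRH-1 peaks per megabase and the groups of 100 pairs. The rule for the members, the measures and the alternatives was chosen with earlier results of these data known. Alternatives changed the overlap needed, the peak widths, the lists' thresholds, the measure of strength and the chromosomes used. Figures were drawn with matplotlib 3.10.9.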

Additional observations from a re-analysis of the deposited data

How the results depend on the processing

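Of 85 alternative values 47 stayed within the interval of the value reported and 38 moved beyond it. The 38 include the medians by the −log10 of the q-value. These are on another scale than the fold enrichment, so a move was certain and says nothing about how the result depends on processing. Leaving out chromosome X moved none. Keeping only the strongest LRH-1 peak per FAIRE peak was applied only to the correlations with FAIRE score and width, and moved neither of them. Where at least 50% of the LRH-1 peak had to be covered, 40.1% of LRH-1 peaks were at FAIRE peaks, 99.3% of summits were inside, 50.3% were central, 16.4% of FAIRE peaks held LRH-1 and 1.21% of those held several. The share of summits inside follows largely from that rule. Where the summit had to lie inside, these were 39.98% at FAIRE peaks, 50.5% central, 16.3% of FAIRE peaks and 1.16% with several. With LRH-1 peaks set to 200 bp, 97.4% of summits were inside. With FAIRE peaks widened by 500 bp, the values were 44.5% at FAIRE peaks, 88.9% inside, 44.9% central, 18.1% of FAIRE peaks and 2.5% with several.

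With the better 50% of the LRH-1 list by q-value, 49.4% were at FAIRE peaks, with a median fold enrichment of 6.33 there and 6.14 elsewhere. The Spearman correlation of fold with score was then 0.02002 and with width -0.0632, 96.7% of summits were inside, 52.9% central, 10.1% of FAIRE peaks held LRH-1, 0.780% of those held several, and single LRH-1 peaks had a median of 6.36. With the better 50% of the FAIRE list by score, 27.5% were at FAIRE peaks with a median of 5.57, the Spearman correlation with score was 0.0342, 22.2% of FAIRE peaks held LRH-1, 2.21% of those held several, and single peaks had 5.61. Both restrictions narrow the range of a measure that is correlated.

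With the −log10 q-value as the strength, the median was 9.47 at FAIRE peaks and 7.84 elsewhere, 9.50 for single peaks and 10.5 for the strongest of several. The Spearman correlation was 0.117 with score and 0.0608 with width, so the near-zero value for width changed its sign. The order of single and several peaks turned as well, with overlapping intervals by either measure, and the cause was not tested. Counting only LRH-1 summits within 150 bp of the FAIRE centre, an alternative chosen after seeing the data, 11.3% of FAIRE peaks held LRH-1. No paired analysis was possible because each assay and time has 1 list, and no library could be left out. Read depths are unknown, so a peak absent from a list may lie below its threshold.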
